A study of Homo sapiens with 6 samples.

Results

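The replicative DNA polymerases copy the nuclear genome, and 10 of their subunits were measured here in cells depleted of NME2. The members were POLA1, POLA2, PRIM1, POLD1, POLD2, POLD3, POLD4, POLE, POLE2 and POLE3, and every probe set whose platform annotation gave exactly 1 of these symbols was taken. On this array each transcript is read by sets of short oligonucleotide probes, called probe sets. The rule found 13 probe sets among 54613, which name 19775 genes, and 11 of the 13, covering all 10 genes, were bright enough to be tested. The limit was the median brightness of all probe sets, a signal of 71.7 averaged on the log2 scale. The remaining 2, one for POLA2 and one for POLD3, were dimmer.

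The cells were A549, a human lung adenocarcinoma line, and 3 samples, called NME2-depleted, were transiently transfected with a small interfering RNA (siRNA) duplex against NME2, which encodes a nucleoside diphosphate kinase that also binds DNA. The control group comprised 3 samples transfected with control siRNA duplexes. Total RNA of each sample was hybridized to 1 Affymetrix HG-U133 Plus 2.0 array, so the values are messenger RNA levels and not protein levels. The labels and methods state neither the harvest time after transfection nor the duplex sequences, and they name different siRNA suppliers. Replicate arrays are described as biological without naming separate cultures, so the p-values cover the spread between these arrays, which may be partly technical.

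DNA synthesis at the replication fork is shared between 3 holoenzymes. Polymerase alpha-primase lays down a short RNA-DNA primer, polymerase epsilon extends the leading strand and polymerase delta extends the lagging strand. Each has a large catalytic subunit held in place by smaller accessory subunits, and polymerases delta and epsilon also remove their own errors with a proofreading exonuclease. Transcripts of many of these genes are known to increase as cells enter S phase, partly through E2F transcription factors that bind TTTCGCGC-like or TTTGGCGC-like sites near the start of transcription.

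Promoter sequences from RefSeq (GRCh38.p14) were found for 9 of the 10 members, with none for POLD3 and 13 starts in all. Each ran from 250 bases before to 50 bases after a transcription start. Both strands were searched for the E2F-type sites TTTCGCGC, TTTGGCGC and TTTCCCGC, and no match overlapped another of these. At least 1 of these sites was found in 4 of the 9 genes, namely POLA1, POLA2, POLE and POLE2. Counted by promoter this was 4 of 13, whereas 2.74% of 35116 promoters of the same length held one. The sites are given with 20 bases on either side, read along the gene's own strand, because these genes may be set beside POLD1, whose promoter had no such match. Capitals mark the site, which lies on the opposite strand in POLA1, POLE and POLE2 and therefore reads GCGCCAAA there. A match is a run of letters and does not show that a factor binds.
POLA1 (chrX:24693761-24693808, plus strand): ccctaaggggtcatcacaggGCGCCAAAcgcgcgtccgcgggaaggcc
POLA2 (chr11:65261889-65261936, plus strand): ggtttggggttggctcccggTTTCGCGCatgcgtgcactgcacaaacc
POLE (chr12:132687333-132687380, minus strand): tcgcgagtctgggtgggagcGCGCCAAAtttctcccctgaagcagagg
POLE2 (chr14:49688192-49688239, minus strand): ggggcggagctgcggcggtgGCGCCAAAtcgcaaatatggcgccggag

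The promoter of POLD1 is shown in full because POLD1 had the largest difference of the 10 genes. It is the first of 2 annotated starts, and it held none of the E2F-type sites, no CCAAT, neither TTTGAA nor TTCGAA (sites of the cell cycle homology region type) and no NRF1-type palindrome. These letters are therefore absent from this window, which says nothing about the factors themselves. CCAAT was found on either strand in 5 of the 9 genes, or 6 of the 13 promoters, and in 34.6% of all promoters. In POLE a match on each strand overlapped the other. TTTGAA was found in 1 of the 13 promoters, in POLE3, and in 15.2% of all promoters. TTCGAA was found in 0 genes and 1.45% of all promoters, and the NRF1-type palindrome in 0 genes and 1.24%.
POLD1 (chr19:50384073-50384372, plus strand): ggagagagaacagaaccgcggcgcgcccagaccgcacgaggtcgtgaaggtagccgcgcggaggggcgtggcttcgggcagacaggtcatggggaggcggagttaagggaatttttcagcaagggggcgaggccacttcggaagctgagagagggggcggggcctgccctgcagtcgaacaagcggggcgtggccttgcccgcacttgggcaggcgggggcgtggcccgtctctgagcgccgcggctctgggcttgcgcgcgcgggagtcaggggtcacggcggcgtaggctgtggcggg

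The label of the depleted cells was checked first. The 1 probe set that reports NME2, which also carries the name of the NME1-NME2 read-through, had signals of 1920, 3676 and 3216 in NME2-depleted cells and 17862, 19389 and 21045 in control cells, which was 6.85-fold lower in depleted cells (limma adjusted p = 0.00032). All 10 markers of epithelial cells and of A549 were above the filter, with summed signals of 163217 to 193008 in depleted and 170684 to 200566 in control arrays. Summed signals were 405 to 558 in depleted and 473 to 553 in control arrays for 5 measured leukocyte markers, of which 3 were above the filter. They were 286 to 395 in depleted and 212 to 314 in control arrays for 5 endothelial markers (1 above it), and 787 to 965 in depleted and 603 to 799 in control arrays for 6 fibroblast markers (3 above it). PTPRC and CDH5, which define leukocytes and endothelium, reached at most 25.5 and 34.2, whereas CD14, ITGAM and PECAM1, further markers of these cells, reached 349.5, 150.4 and 252. No marker passed the threshold. The ratio of 3' to 5' signal of ACTB, a sign of RNA quality, was 1.33 to 1.40 in depleted arrays and 1.20 to 1.30 in control arrays, and the groups did not overlap. The same ratio of GAPDH was 0.98 to 1.06 in depleted arrays and 0.97 to 1.02 in control arrays, and the groups overlapped. The part of RNA quality in the differences below was not tested.

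None of the 10 polymerase genes passed the threshold (limma, Benjamini-Hochberg adjusted p under 0.05 over 27307 probe sets), beside 0.54% of all 12406 tested genes and 0.396% of tested probe sets in either direction. The mean was lower in NME2-depleted cells for 7 genes and higher for 3, and 49.8% of all tested genes had a lower mean. The 7 include POLA2, whose probe sets had opposite signs. With the probe sets of each gene averaged, 6 genes had a lower mean and the median was -0.074. Without probe sets of suffix x, s or a, 5 of 9 genes had a lower mean. With median centring 9 genes had one, but this scaling also moved the median of all tested genes to -0.05. The share of 49.8% was taken without that centring, as are the values that follow. The median log2 difference, NME2-depleted minus control, was -0.11, against 0.00 over all tested genes. Differences ranged from -0.53 for POLD1 to 0.19 for POLD4. At an unadjusted p under 0.05 there was 1 gene, POLD1, which was lower, beside 15% of all tested genes (7.75% lower and 7.25% higher). The 3 depleted and 3 control arrays were fully separated in POLD1 alone, whereas 20.6% of all tested genes were separated, 10.1% with the depleted arrays lower and 10.4% with them higher. The methods' t-test with the same adjustment called 0 of all 27307 probe sets, so it carries no information on the 10 genes.

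**Figure D1:**
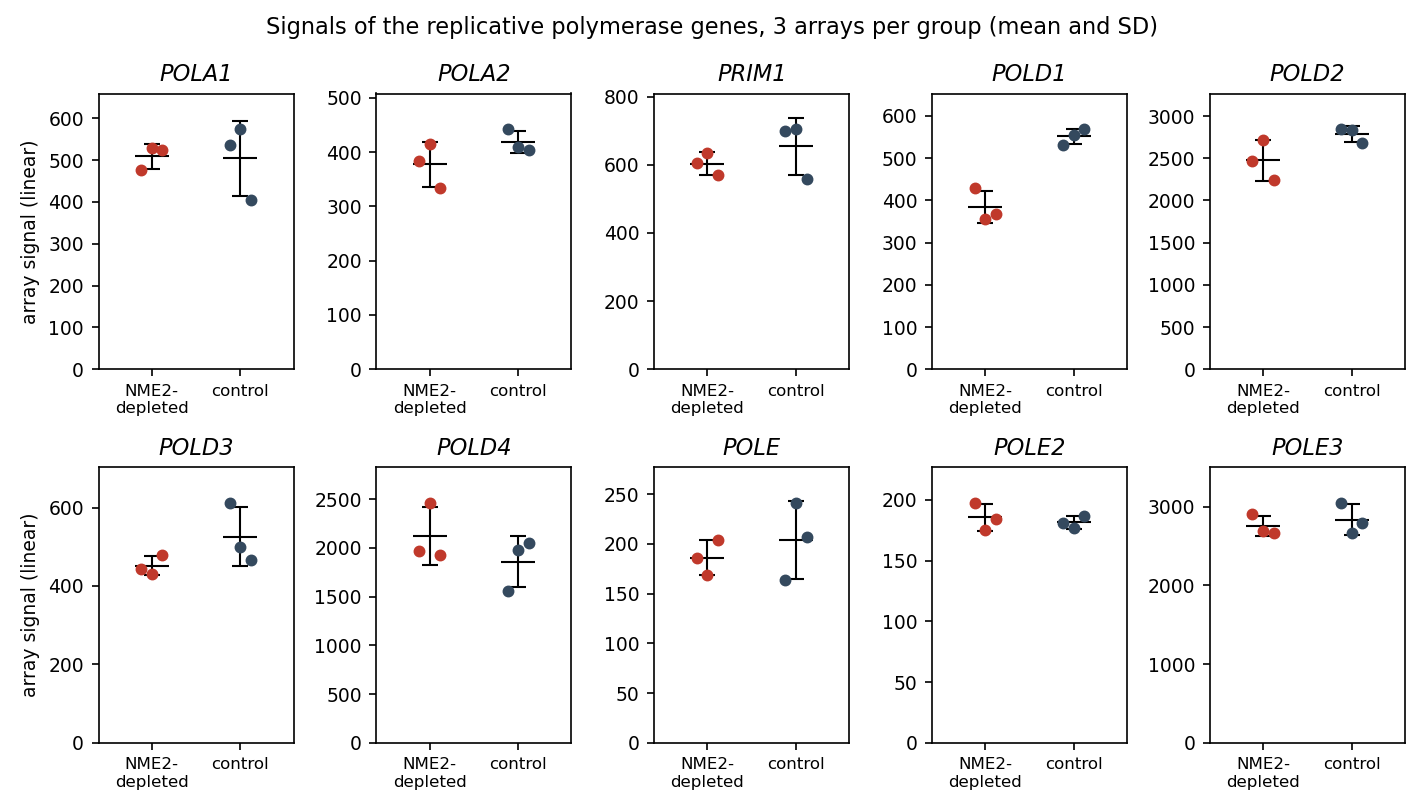
Array signal (vertical axis, linear scale from 0) of the 10 polymerase genes, each by its brightest probe set, with NME2-depleted arrays in red and control arrays in dark blue. Points are arrays and bars the mean and SD of 3 arrays; in POLD1 alone, at 357 to 428 in NME2-depleted and 532 to 568 in control arrays, do the groups stay apart.

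Polymerase delta held the member that differed most. POLD1 encodes the catalytic subunit, which carries both the polymerase and the proofreading exonuclease. Its signals were 427.9, 356.8 and 368.3 in NME2-depleted cells and 531.9, 555.0 and 567.6 in control cells. Every depleted array lay below every control array, with a gap of 104 signal units between the nearest pair, and control arrays lay close together. The means were 384.3 ± 38.2 and 551.5 ± 18.1 (SD, n = 3 each), a log2 difference of -0.53 (SE 0.12, 95% interval -0.80 to -0.25, limma adjusted p = 0.103), which is 30.5% lower as a ratio of geometric means. The difference exceeded the spread between replicates but missed the threshold after adjustment: 348 of the 27307 probe sets had a p as small or smaller. The exact two-sided permutation test gave p = 0.1, the smallest that 3 against 3 arrays allow. POLD1 had 1 probe set, so no other measurement of the gene was made here. POLD1 signals were lower in the group with the higher ACTB 3' to 5' ratios, whereas GAPDH ratios overlapped between the groups. Among control arrays, replicate 1 had the lowest ACTB ratio and the lowest POLD1 signal. Among depleted arrays, replicate 1 had the lowest ACTB ratio and the highest POLD1 signal. The part of RNA quality was not tested. In RNA from whole cultures, fewer cells in S phase and less POLD1 transcript in each cell cannot be told apart.

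The accessory subunits of polymerase delta differed less. POLD2, which bridges the catalytic subunit and POLD3, had 2468, 2715 and 2237 in NME2-depleted cells and 2841, 2839 and 2679 in control cells. Only depleted replicate 2 reached into the control range, between the lowest and the middle control array. The log2 difference was -0.18 (SE 0.08, 95% interval -0.36 to 0.01, adjusted p = 0.412), and it was -0.11 without depleted replicate 3. POLD3, which binds the sliding clamp PCNA and is also used in break-induced repair, had 443.9, 431.2 and 478.7 in depleted cells and 611.6, 499.3 and 467.3 in control cells. Control replicate 1 was the highest and set much of the distance between the groups, which overlapped in depleted replicate 3 and control replicate 3. The log2 difference was -0.21 (SE 0.13, adjusted p = 0.545), and it was -0.10 without control replicate 1.

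POLD4, the smallest delta subunit, which is degraded after DNA damage, had a higher mean in depleted cells. Its signals were 1965, 2462 and 1932 in NME2-depleted cells and 1556, 1976 and 2050 in control cells. The groups overlapped, with depleted replicate 2 above all other arrays and control replicate 1 below them. The log2 difference was 0.19 (SE 0.12, 95% interval -0.08 to 0.46, adjusted p = 0.567), and it was 0.065 without control replicate 1 and 0.077 without depleted replicate 2. The dimmer POLD3 probe set had signals between 32.4 and 71.1 over the 6 arrays, was not tested, and is not read further.

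Within an array, the ratio of 2 subunits of the same holoenzyme does not depend on how that array was scaled. All 12 pairs within the 3 holoenzymes were compared on the log2 scale, as differences from the control mean of the ratio. The ratio of POLD1 to POLD4 was -0.45, -1.04 and -0.65 in depleted cells and 0.20, -0.09 and -0.11 in control cells, a shift of -0.71. That of POLD1 to POLD2 was -0.19, -0.59 and -0.27 in depleted cells and -0.08, -0.02 and 0.10 in control cells, a shift of -0.35. POLD2 to POLD4 shifted by -0.37. These were the 3 pairs of 12 in which the groups did not overlap, each with an exact two-sided permutation p of 0.1 and 0.4 after adjustment over the 12 pairs. The pairs share their subunits, so they are not independent, and none passed the threshold. Among single genes 20.6% were separated, but the share of separated ratios over all gene pairs was not computed. POLD1, which is in the ratios to POLD4 and POLD2, was already separated on its own.

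**Figure D2:**
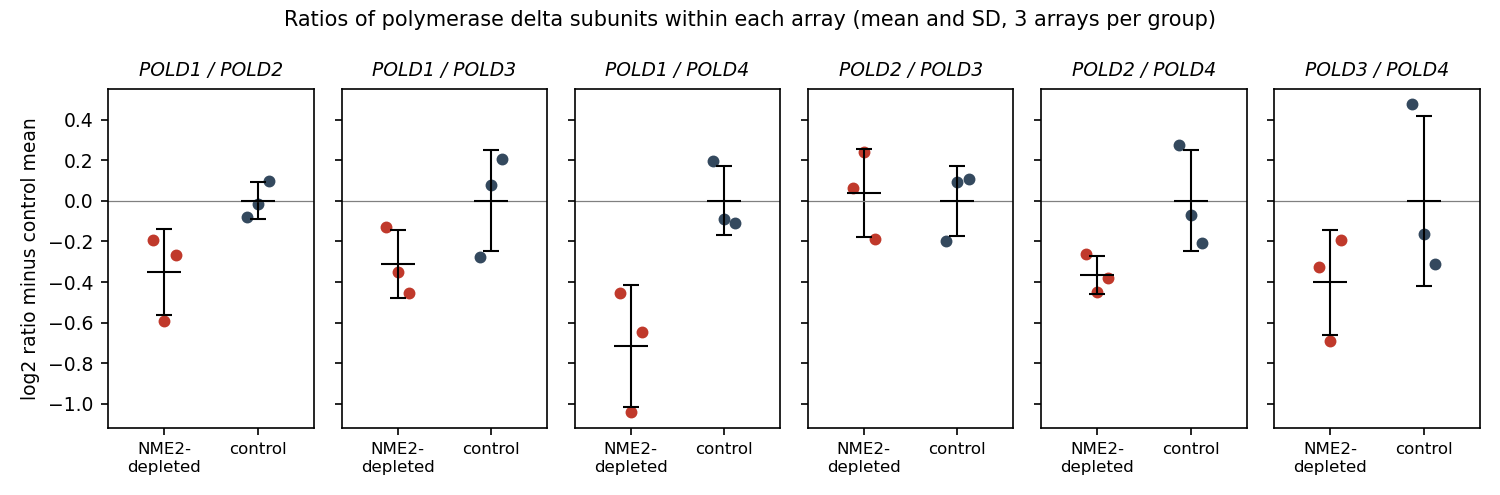
Log2 ratio of the signals of each pair of polymerase delta subunits within an array, minus the control mean of that ratio (vertical axis), for 3 NME2-depleted (red) and 3 control (dark blue) arrays with mean and SD. The ratios of POLD1 to POLD4, POLD1 to POLD2 and POLD2 to POLD4 lie lower in all depleted arrays, with mean shifts of -0.71, -0.35 and -0.37.

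In polymerase alpha-primase, no subunit was separated between the groups. POLA1, the catalytic subunit of polymerase alpha, had 475.4, 529.4 and 523.2 in NME2-depleted cells and 536.2, 573.1 and 403.5 in control cells. Depleted arrays fell inside the wider control range, and the log2 difference was 0.03 (SE 0.15, 95% interval -0.29 to 0.35, adjusted p = 0.959), with a sign that turned under median centring, under array weights and without control replicate 3. PRIM1, the catalytic subunit of primase, had 606.5, 635.0 and 569.1 in depleted cells and 699.0, 703.4 and 558.4 in control cells. Control replicate 3 was the lowest of the 6 arrays and the other control arrays were the highest, and the log2 difference was -0.11 (SE 0.12, adjusted p = 0.759). Leaving out single arrays gave -0.22 to -0.051, with -0.22 without control replicate 3, -0.051 and -0.056 without control replicates 2 and 1, and -0.067 without depleted replicate 3. In both POLA1 and PRIM1 control replicate 3 was therefore the lowest array. Their ratio shifted by 0.14 in depleted cells (exact permutation p = 0.2).

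POLA2, the accessory subunit of polymerase alpha, was reported by 3 probe sets. The brightest had 383.8, 414.6 and 333.3 in NME2-depleted cells and 441.5, 409.0 and 403.7 in control cells, with a log2 difference of -0.15 (SE 0.13, 95% interval -0.45 to 0.14, adjusted p = 0.685). The dimmer tested probe set had 101.3, 94.0 and 130.7 in depleted cells and 70.5, 110.1 and 95.3 in control cells, a log2 difference of 0.25 (SE 0.28, adjusted p = 0.754). The 2 tested probe sets thus had opposite signs, neither was separated, and the mean of both gave 0.05. The third probe set lay between 4.9 and 20.4 and was not tested. No direction is given for POLA2 for this reason.

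The 3 members of polymerase epsilon were not separated between the groups. POLE, its catalytic subunit, had 186.0, 168.8 and 203.5 in NME2-depleted cells and 163.5, 241.2 and 207.2 in control cells. The depleted arrays lay within the control range, and the log2 difference of -0.12 (SE 0.20, adjusted p = 0.849) had an interval of -0.56 to 0.32, the widest among the genes' brightest probe sets. It was -0.27 without control replicate 1 and 0.012 without control replicate 2. POLE2, the accessory subunit that joins POLE to the helicase, had 197.4, 175.3 and 184.5 in depleted cells and 180.5, 176.8 and 187.0 in control cells, a log2 difference of 0.03 (SE 0.17, 95% interval -0.35 to 0.42, adjusted p = 0.962). Arrays of both groups were intermixed.

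POLE3 is a small histone-fold subunit that pairs with POLE4 and is also part of a chromatin remodelling complex. It had 2904, 2696 and 2672 in NME2-depleted cells and 3049, 2662 and 2793 in control cells. Replicates 1 were the highest arrays of both groups. The log2 difference was -0.04 (SE 0.08), and its 95% interval of -0.21 to 0.13 was the narrowest of the 10 genes. For POLE, a dim gene, values as low as -0.56 lie within it. By the brightest probe set, the 4 genes with an E2F-type site had differences of 0.03 for POLA1, -0.15 for POLA2, -0.12 for POLE and 0.03 for POLE2. The other tested probe set of POLA2 had 0.25. Each 95% interval included 0, as did that of every other member but POLD1. A link between sites and differences was not tested.

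**Figure D3:**
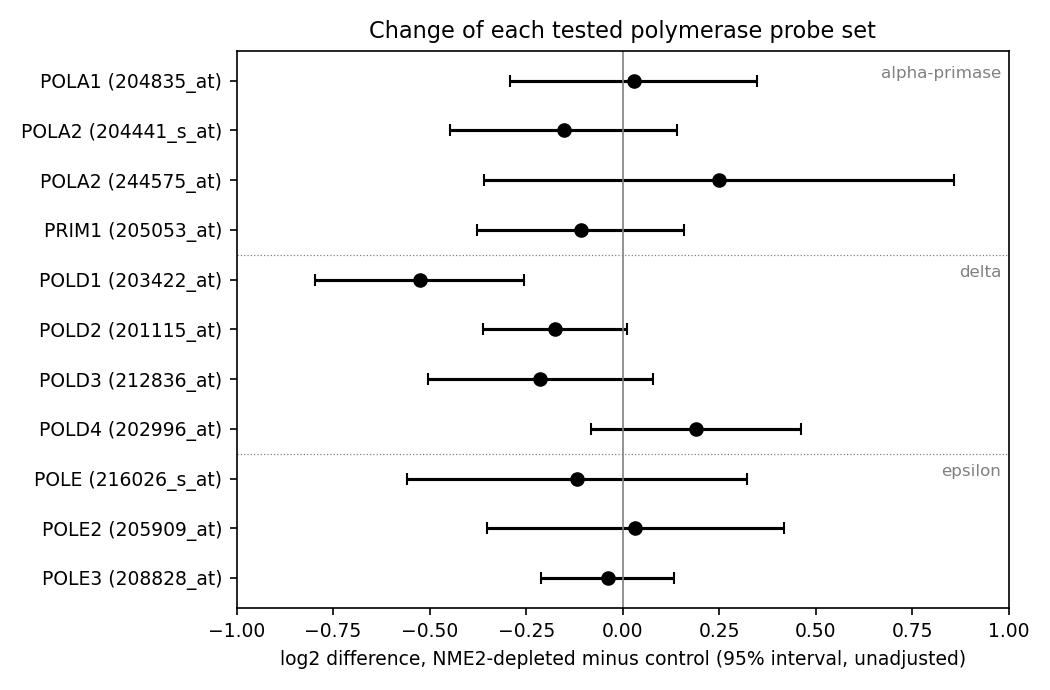
Log2 difference, NME2-depleted minus control (horizontal axis), of the 11 tested polymerase probe sets, grouped by holoenzyme, with unadjusted 95% intervals from limma. The interval of POLD1, -0.80 to -0.25, is the 1 interval that leaves out 0, and that of POLD2 ends at 0.01.

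By holoenzyme, the median log2 difference was -0.11 for alpha-primase, -0.19 for delta and -0.04 for epsilon, with a lower mean in 2 of 3, 3 of 4 and 2 of 3 genes by the brightest probe set. Averaging the probe sets of POLA2 turned its sign and left 1 of 3 alpha-primase genes lower. Set against the mean of the control arrays, the median member stood at -0.11, -0.04 and -0.10 in NME2-depleted replicates 1 to 3 and at 0.05, 0.02 and -0.03 in control replicates 1 to 3. The depleted medians lay below all control medians, but depleted replicate 2 and control replicate 3 differed by little. POLA2 entered by its brightest probe set. Of the lists below, the medians of deoxynucleotide supply and of the other subunits and partners were also lower in all depleted arrays. Those of repair, translesion and mitochondrial polymerases were higher in all of them, and those of the remaining pathway lists overlapped. Single arrays moved the median difference of the polymerase genes: it was -0.067 without NME2-depleted replicate 3, -0.067 without control replicate 2 and -0.15 without control replicate 3.

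Other subunits and partners of these holoenzymes had lower means in 3 of 3 tested genes, with a median of -0.18, and 0 passed the threshold. POLE4, the histone-fold partner of POLE3, had 2896, 3037 and 2980 in NME2-depleted cells and 3203, 3470 and 3458 in control cells. All depleted arrays lay below the control arrays, and the log2 difference was -0.18 (SE 0.07, adjusted p = 0.304). The other tested POLE4 probe set had -0.15 (adjusted p = 0.416). PRIM2, the large primase subunit, had a difference of -0.06 (SE 0.24) from the 1 probe set that names it alone. POLDIP3, a polymerase delta interacting protein, had -0.22 (adjusted p = 0.425), with -0.17 and 0.56 for its other tested probe sets. POLDIP2 was not named by a probe set of its own.

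Around the polymerases, GINS2 was the only gene of the lists that passed the threshold, beside 0.54% of all tested genes. Of 26 tested helicase and origin factors, GINS2, a part of the replicative helicase, was the 1 gene that passed, and it was lower. Its signals were 164.5, 168.3 and 155.4 in NME2-depleted cells and 506.5, 370.2 and 307.7 in control cells (log2 difference -1.25, SE 0.20, adjusted p = 0.0279). Its other tested probe set had 0.12 (SE 0.39), so the fall rests on 1 probe set. MCM3 and MCM2, which form part of the helicase ring, had -0.33 and -0.38 with adjusted p-values of 0.261 and 0.35. The list had a lower mean in 16 genes and a median of -0.06.

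None of 19 tested genes of the clamp, clamp loader, single-strand binding and flap processing group passed, and the mean was lower in 13 (median -0.05). RFC4 and RFC3, clamp loader subunits, had -0.35 and -0.25, and RFC1, the large subunit of the same loader, had 0.25 (adjusted p from 0.231 to 0.291). The other tested probe sets of RFC3 and RFC1 had -0.29 and 0.08. Of 11 tested genes of deoxynucleotide supply the mean was lower in 10 (median -0.23), and 0 passed. The list also holds SAMHD1, which breaks deoxynucleotides down, so lower means are not read as less supply. SAMHD1 had the largest fall of the list (-0.66, limma adjusted p = 0.312). In this brightest probe set control replicate 1 stood at 2113, against 864.3 and 984.6 in control replicates 2 and 3. The other tested probe sets of SAMHD1 had -1.04, -0.83, -0.36 and -0.21 (limma adjusted p from 0.105 to 0.875). DTYMK, which makes dTDP, had -0.30, TK1, thymidine kinase, had -0.28, and RRM1, the large subunit of ribonucleotide reductase, had -0.29, with adjusted p-values of 0.178, 0.246 and 0.274. The other tested probe sets of TK1 and RRM1 had -0.31 and -0.30, and those of DTYMK had -0.39 and 0.59. At an unadjusted p under 0.05, 6 genes of this group were lower and 1 higher, beside 7.75% and 7.25% of all tested genes. Lower and higher counts were 4 and 0 of 26 helicase and origin factors, and 3 and 1 of 19 in the clamp group. They were 1 and 0 of 3 other subunits and partners, 1 and 1 of 13 repair, translesion and mitochondrial polymerases, and 2 and 0 of 14 cell cycle markers. The lists were chosen with earlier results of these data known, so the counts are description and were not tested.

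Polymerases of repair, lesion bypass and mitochondria had more higher than lower means. Of 13 tested genes the mean was higher in 8 and lower in 5, with a median of 0.15, and 0 passed. POLB, the polymerase of base excision repair, had 2310, 2466 and 2339 in NME2-depleted cells and 1700, 1667 and 2481 in control cells (log2 difference 0.31, SE 0.13, adjusted p = 0.366). Control replicate 3 stood above all depleted arrays, so the groups overlapped. POLG2, the accessory subunit of the mitochondrial polymerase, had 0.21 (adjusted p = 0.407), and PRIMPOL, which re-primes stalled forks, had -0.37 (adjusted p = 0.259). The difference between these polymerases and the replicative ones was not tested.

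Markers of E2F activity and the cell cycle had lower means in 11 of 14 tested genes, with a median of -0.10, and 0 passed. FOXM1, a transcription factor of mitotic genes, had 657.3, 683.3 and 612.8 in NME2-depleted cells and 1007, 882.9 and 907.4 in control cells, a log2 difference of -0.52 (SE 0.10, adjusted p = 0.058). TOP2A, a topoisomerase of dividing cells, and E2F1 had -0.42 and -0.35 (adjusted p = 0.312 and 0.423), and their other tested probe sets had -0.14 and -0.18. The median marker stood at 0.00, -0.03 and -0.24 in depleted replicates 1 to 3 and at 0.14, -0.01 and -0.18 in control replicates 1 to 3, so the groups overlapped.

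**Figure D4:**
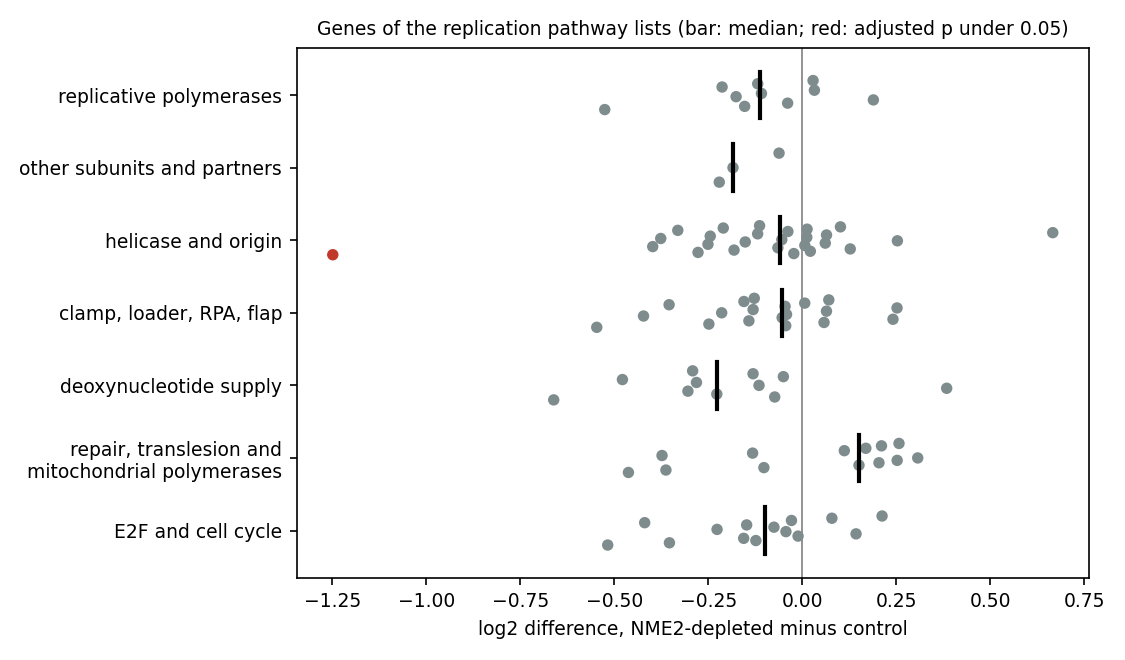
Log2 differences, NME2-depleted minus control (horizontal axis), of the tested genes of 7 replication-related lists, 1 point per gene by its brightest tested probe set, with the median as a black bar. GINS2, at -1.25, is the only gene in red (adjusted p under 0.05); medians were -0.11 for the replicative polymerases, -0.23 for deoxynucleotide supply and 0.15 for repair, translesion and mitochondrial polymerases.

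The genes whose pattern over the 6 arrays lay nearest to that of POLD1 were GATD1, NCBP2AS2, MAML1, CDC25B and TRIM45. Likeness was the root mean square difference of log2 signals, each centred on its own mean over 6 arrays, and it was 0.0544, 0.0580, 0.0639, 0.0715 and 0.0733 for these genes. CDC25B, a phosphatase that activates cyclin-dependent kinases before mitosis, had 5780, 5355 and 5394 in NME2-depleted cells and 7958, 7354 and 7846 in control cells (adjusted p = 0.0192). MAML1, a coactivator of Notch signalling, had 655.4, 611.2 and 621.7 in depleted cells and 825.2, 867.0 and 882.5 in control cells. The nearest other member was POLD2, at 0.22, ranked 1463 of 12406. With 6 arrays in 2 groups, many genes that differ by a similar amount will be near one another.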

How the data were processed

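Biotin-labelled cRNA was hybridized and the authors deposited 1 linear intensity per probe set and array. GCOS 1.1.1 is named in the submitters' processing notes. All 6 arrays had a mean of 500.06 to 500.07 after 2% was trimmed at each end, so the authors had scaled them to a common mean, which hides any shift that all transcripts share. Further settings are not stated, and detection calls were not used. Arrays have no read depth, and 3 per group limits the precision.

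After removal of 62 Affymetrix controls, a floor of 1 was applied (0.327% of values lay below it) and signals were put on the log2 scale. The brighter part of the probe sets, by the median of mean log2 signals, entered limma 3.58.1 under R 4.3.3. It used lmFit and eBayes with an intensity trend, two-sided, with Benjamini-Hochberg adjustment over 27307 probe sets at 0.05, and was tested on simulated data. Differences are on the log2 scale, and folds are their antilogs. For each gene the brightest tested probe set stood for the gene. The annotation, of GEO's platform table, gave 1 symbol for 41091 probe sets; 41037 were found in RefSeq by gene identifier and 0 symbols changed. The members and all lists were chosen with earlier results of these data known. Named genes were the members, NME2, and up to 3 genes of lowest p and any past the threshold in each list. All of the short list of further subunits, SAMHD1 and the 5 genes most like POLD1 were named as well. The alternatives were quantile, median and cyclic loess scaling, an offset of 16 before log2, no filter or the 75th percentile, probe sets of suffix x, s or a left out, no intensity trend, robust eBayes, array weights, the methods' t-test, a block for replicate number, leaving out single arrays, and averaging the probe sets of each gene.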

Additional observations from a re-analysis of the deposited data

How the results depend on the processing

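No polymerase gene passed under any of the 19 alternatives, of which the 75th percentile filter tested 7 of the 10 (not POLA2, POLE and POLE2) and the suffix filter 9, and POLD1, POLD2, POLD3, POLD4 and PRIM1 kept their sign in all of them. POLD1 ranged from -0.60 to -0.47, with adjusted p from 0.0637 to 0.265. The median of the polymerase genes was -0.16 with median centring, which moved the median of all genes to -0.05, and -0.039 over 9 genes without probe sets of suffix x, s or a, where POLE could not be measured. Leaving out 1 array gave -0.15 to -0.067. Signs turned in POLA1 (-0.019 with median centring, -0.013 with array weights, -0.12 to 0.13 without single arrays), POLA2 (0.25 without suffix x, s or a, 0.049 with the mean of its probe sets), POLE2 (-0.016 with median centring, -0.012 to 0.073 without single arrays), POLE (-0.27 to 0.012) and POLE3 (-0.083 to 0.015), the last 2 without single arrays. Over all genes 108 probe sets passed (76 lower, 32 higher). It was 30 with no filter, 192 with the 75th percentile, 53 without suffix x, s or a, 0 with no intensity trend (3130 at an unadjusted p under 0.05), 0 by the methods' t-test (3065), and 19 to 70 without single arrays. Median centring gave 107 lower and 20 higher.

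With the replicate block 464 probe sets passed and the polymerase genes still gave 0 (POLD1 adjusted p = 0.0749). Same-numbered arrays of the 2 groups had deviations that correlated at 0.11, 0.08 and 0.07, and each array correlated best with its own number, but not all exceeded 0.1, so the numbers were not taken to pair the samples.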
